A study of Homo sapiens with 3 samples.

Results

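Binding of TIA1 to the transcripts of 10 heterogeneous nuclear ribonucleoproteins (hnRNPs) was examined in an eCLIP experiment. The transcripts were those of HNRNPH1, HNRNPA1, HNRNPC, HNRNPK, HNRNPU, HNRNPD, HNRNPDL, HNRNPA3, HNRNPR and HNRNPM, each taken as 1 genomic interval in build hg19. Clusters of reads and reproducible peaks were assigned to a transcript when they overlapped its interval by at least 1 nt on the same strand. This gave 332 of 103134 clusters in replicate 1, 263 of 66222 in replicate 2, and 37 of the 2253 peaks in the authors' joint list of both replicates.

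In eCLIP, ultraviolet light fixes a protein to the RNA it contacts, the protein is pulled down, and the attached RNA is sequenced next to a size-matched input. The TIA1_IP group held 2 replicates from HEK293T, an established human embryonic kidney line, irradiated with 600 mJ and precipitated with an anti-TIA1 antibody, and the input was 1 library of the same cells prepared without antibody. No further treatment is given for either group. The treatment protocol attaches the antibody's catalogue number to Msi1, and the labels call the replicates both technical and biological, so a spread between them may be technical.

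The hnRNPs are abundant nuclear proteins that coat new transcripts as they are made and steer splicing, export, stability and translation. Several members adjust their own levels through alternative splicing of their own transcripts, which makes these RNAs known sites of control by RNA-binding proteins. TIA1 is itself an RNA-binding protein that prefers U-rich stretches, acts on splice site choice next to such stretches, and represses translation in stress granules.

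The name of each interval was checked against GENCODE release 29, which is on another build and was therefore used for names, chromosome, strand and span only. Chromosome and strand matched for 10 of 10 transcripts. The interval was shorter than the GENCODE span by over 2 percent for 6 of them, most for HNRNPH1 (10494 nt against 20607 nt), HNRNPU (14243 against 23923) and HNRNPA1 (4543 against 6896). Whether a site is in an exon, an intron or a UTR was not analysed here, and neither was its sequence. Position is given as the distance of a peak's centre from the ends of the interval. GENCODE lists another gene on the same strand within HNRNPA1 (AC078778.2), HNRNPK (MIR7-1) and HNRNPA3 (MIR4444-1), whose reads cannot be told apart from those of the host. All 10 genes have named pseudogenes, 74 for HNRNPA1, 16 for HNRNPA3, 9 for HNRNPC and from 1 to 5 for the others. How reads matching both a gene and its copies were placed is not given in the sources used here, so read numbers, above all on HNRNPA1, are uncertain to that extent.

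The library totals recovered from the deposited values were 2683407 reads in replicate 1, 1997817 in replicate 2 and 2851338 in the input. Clusters were shallow, with a median of 4 reads in each replicate over all clusters and 9 in each replicate on the hnRNP transcripts. The deposited values of a cluster are a log2 fold of immunoprecipitated over input reads and a −log10 p-value for that ratio. A cluster with both values at 3 or more is called enriched here. In the joint list the fold is a mean of both replicates, and the −log10 p is not that of this mean. At the HNRNPH1 peak from 179045466 it was 9.91, as in replicate 2's own cluster, where replicate 1's had 11.1. At the HNRNPA1 peak from 54675332 it was 3.14, as in replicate 1's own cluster, where replicate 2's had 4.07. Where the recovered input is 1 read, the true number may also be 0, because each deposited fold is finite.

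TIA1 contacts enriched over the input were found on each of the 10 transcripts in each replicate. The transcripts were chosen with earlier results of these data known, so this count may follow from the choice. How many other transcripts have such a cluster was not analysed. Enriched clusters numbered 39 of 332 (11.7%, exact 95% interval 8.49 to 15.7) in replicate 1, against 3.09% of all clusters in that replicate. In replicate 2 they numbered 46 of 263 (17.5%, 13.1 to 22.6), against 5.32% of all clusters. The lead over the whole list held at other limits. With a log2 fold of 1 in place of 3, 59 hnRNP clusters passed in replicate 1 (17.8%, against 4.14%) and 64 in replicate 2 (24.3%, against 6.36%). With a log2 fold of 4 and a −log10 p of 5 it was 11 (3.31%, against 0.886%) and 19 (7.22%, against 1.51%). On the opposite strand of the same intervals neither replicate listed a cluster (0 and 0). Whether clusters were sought on that strand is not given in the sources used here, so this cannot serve as a control. The higher share goes with the larger read numbers of these clusters. Clusters with enough recovered reads to be enriched had at least 13 in replicate 1 and 10 in replicate 2. Of these, 39 of 101 on the hnRNP transcripts were enriched in replicate 1 (38.6%, 29.1 to 48.8), against 43.4% of all such clusters. In replicate 2 it was 46 of 103 (44.7%, 34.9 to 54.8), against 52.3%. Both intervals include the share over all such clusters. The exact intervals of shares treat clusters and peaks as independent, though several lie on each transcript, and so may be too narrow. Reads were not recovered for 53 of 332 hnRNP clusters in replicate 1 and 32 of 263 in replicate 2, none of them enriched. Over all clusters 93.4% and 94.9% were recovered. How many of the missing clusters had enough reads is not known, so the hnRNP shares may be lower than given. The hnRNP transcripts held 1.38% and 1.53% of the clusters with enough recovered reads, 1.22% and 1.31% of the enriched clusters, and 1.64% of the reproducible peaks. RNA abundance was not measured apart from the input, so more RNA and more contacts per RNA cannot be told apart by read number.

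**Figure D1:**
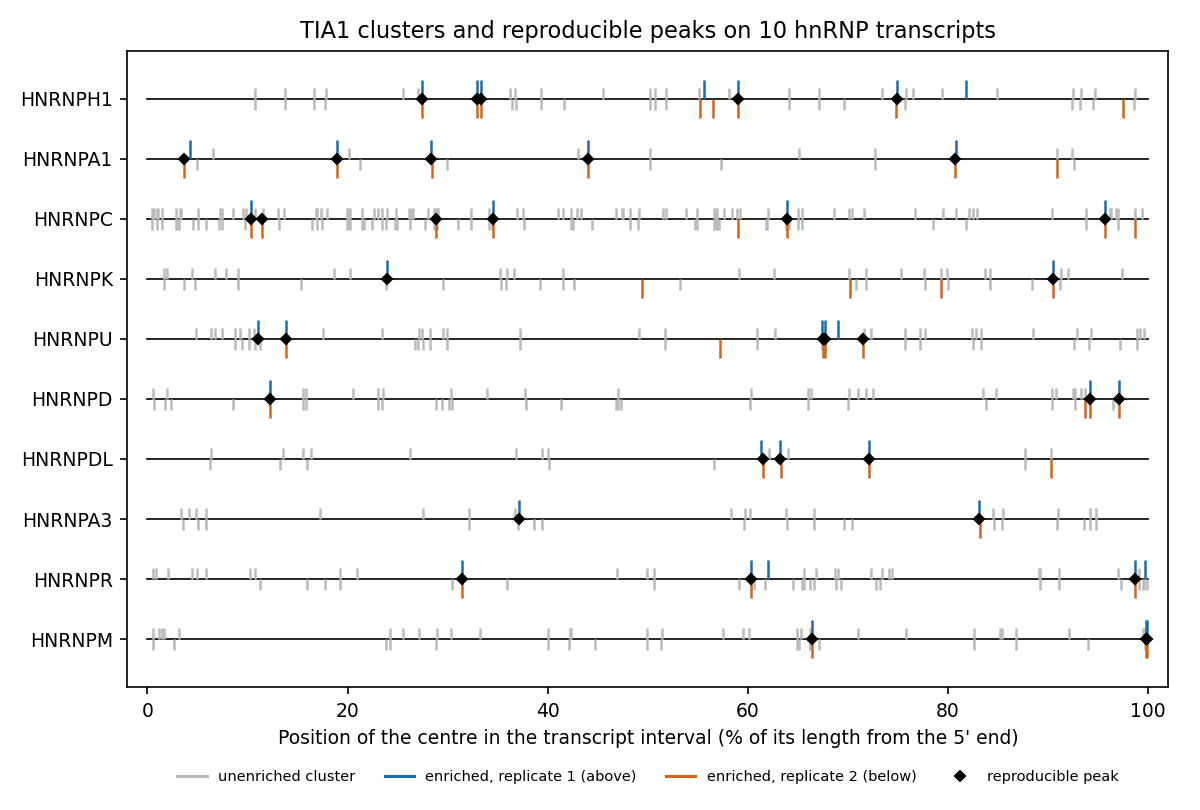
Centres of clusters and reproducible peaks along the 10 hnRNP intervals, as a percentage of the interval length from the 5′ end. Grey ticks are unenriched clusters, blue ticks above the line and orange ticks below it are enriched clusters of replicate 1 and replicate 2, and diamonds are the 37 reproducible peaks. Peaks lie at both ends and in the middle, with HNRNPM's last pair at the 3′ end.

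The 37 reproducible peaks were spread over all 10 transcripts, which were chosen with earlier results of these data known. HNRNPC carried 6, HNRNPH1, HNRNPA1 and HNRNPU 5 each, HNRNPD, HNRNPDL, HNRNPR and HNRNPM 3 each, and HNRNPK and HNRNPA3 2 each. Several of these counts differ by over 1.5 times from the enriched clusters of 1 replicate alone. Without replicate 1, HNRNPH1 had 8, HNRNPK 4 and HNRNPA3 1, and without replicate 2, HNRNPR had 5. Per kb of interval the order changed, from 1.10 peaks on HNRNPA1 and 0.476 on HNRNPH1 to 0.0679 on HNRNPM. The intervals of HNRNPA1 (4543 nt against a GENCODE span of 6896) and HNRNPH1 (10494 against 20607) are shorter than the gene. Their densities are therefore higher than over the span, and the order holds for the intervals only. The intervals include introns, whose part in these densities was not measured.

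The peaks' median log2 fold was 4.07 (quartiles 3.76 and 4.50), against 4.15 over all 2253 peaks, and 21 of 37 (56.8%) reached a log2 fold of 4, against 60.5% of all peaks. A log2 fold of 5 was passed by 3 (8.11%, against 12.3%), on HNRNPDL, HNRNPH1 and HNRNPR. A log2 fold of 4 with a −log10 p of 5 was met by 12 (32.4%, against 32.9%). In fold the hnRNP peaks therefore sat near the middle of the list. Their read numbers were larger, with medians of 35 in replicate 1 and 26 in replicate 2, against 24 and 20 over all peaks. The median −log10 p was 6.47, against 4.88. An input number of 1 underlay 14 of 37 peaks (37.8%), against 51.3% of all peaks.

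The share of enriched clusters was highest on HNRNPA1, where 5 of 13 clusters were enriched in replicate 1 (38.5%, exact 95% interval 13.9 to 68.4) and 6 of 13 in replicate 2 (46.2%, 19.2 to 74.9). HNRNPDL had 3 of 15 (20.0%) and 4 of 10 (40.0%), and HNRNPH1 7 of 33 (21.2%) and 8 of 27 (29.6%), so their order changed between replicates. HNRNPC had the most clusters and one of the smallest shares, 4 of 90 in replicate 1 (4.44%, 1.22 to 11.0) and 8 of 64 in replicate 2 (12.5%, 5.55 to 23.2). Its clusters were shallow. Those with recovered reads held 632 reads in 65 clusters in replicate 1 and 493 in 52 in replicate 2. On HNRNPA1 it was 253 in 11 and 217 in 12. The shares were not compared between transcripts at matched reads. Of the 45 pairs of transcripts, the intervals of 1 (HNRNPA1 and HNRNPC) stood apart in replicate 1 and those of 0 in replicate 2. No correction was made for the number of pairs. The order of the transcripts, that of HNRNPA1 and HNRNPC included, therefore cannot be read at this number of clusters.

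**Figure D2:**
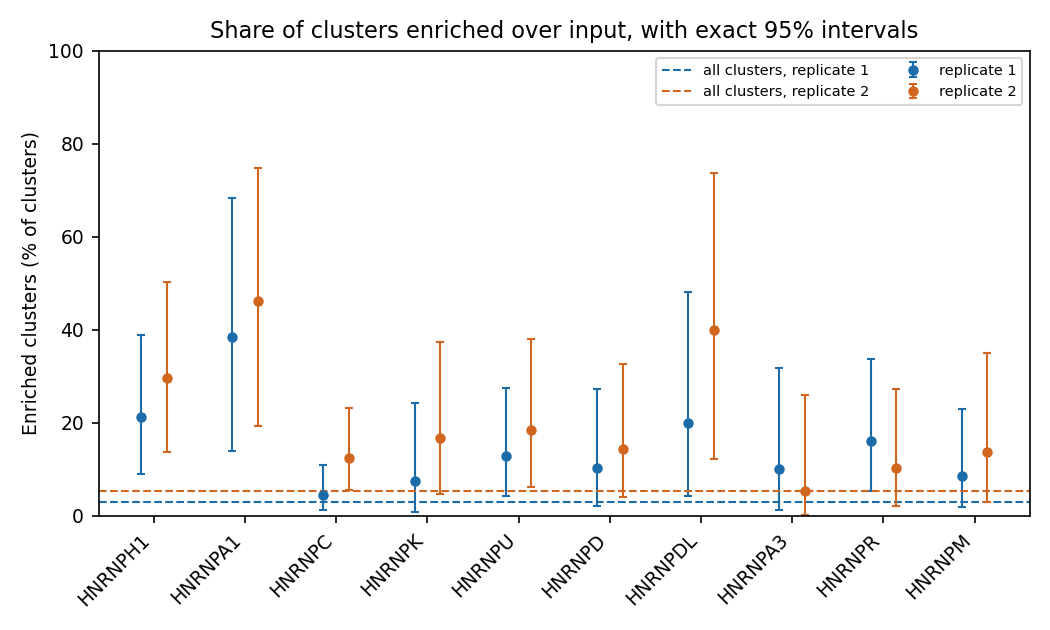
Percentage of each transcript's clusters that were enriched over input, by replicate, with exact 95% binomial intervals as bars. Dashed lines mark the share over all clusters, 3.09% in replicate 1 and 5.32% in replicate 2. HNRNPA1 is highest in each replicate, and HNRNPA3 in replicate 2, at 5.26%, is at the dashed line.

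Reads in clusters, scaled to 1000000 library reads (RPM) and per kb of interval, gave a similar order in both replicates. HNRNPH1 was highest with 39.2 in replicate 1 and 41.6 in replicate 2, then HNRNPA1 with 20.8 and 23.9, and HNRNPU with 18.2 and 18.4. HNRNPDL (11.9 and 11.2) and HNRNPA3 (12.1 and 9.97) overlapped and cannot be ordered. HNRNPK had 9.28 and 9.44, HNRNPD 4.99 and 6.07, HNRNPC 3.90 and 4.09, HNRNPR 2.39 and 2.78, and HNRNPM 1.72 and 1.38. The values of all other neighbours in this order did not overlap between replicates, but with 2 values per transcript this is a description only. The order also rests on intervals that are shorter than the gene for HNRNPH1, HNRNPA1 and HNRNPU. Divided by the GENCODE span instead, the same reads gave HNRNPH1 20.0 and 21.2, HNRNPA1 13.7 and 15.8 and HNRNPU 10.8 and 10.9 RPM per kb. HNRNPU then overlapped HNRNPDL (11.6 and 10.9) and HNRNPA3 (12.1 and 9.97). Reads outside the intervals are not in these sums. The sums rest on clusters called separately in each library, covering 1155 and 1007 nt on HNRNPH1, 540 and 524 nt on HNRNPA1 and 3270 and 2472 nt on HNRNPC. They leave out 53 clusters of replicate 1 and 32 of replicate 2 whose reads were not recovered, each with a log2 fold of at most 0.35. Such a fold does not mean few reads, as 1 HNRNPH1 cluster of replicate 1 at 0.35 had 24. The loss was uneven. Reads were recovered for 65 of 90 and 52 of 64 clusters on HNRNPC, in replicate order. On HNRNPD it was 28 of 29 and 22 of 28, and on HNRNPK 27 of 27 and 22 of 24. The place of HNRNPC below HNRNPD is uncertain to that extent. A read that spans adjoining clusters may enter more than once.

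**Figure D3:**
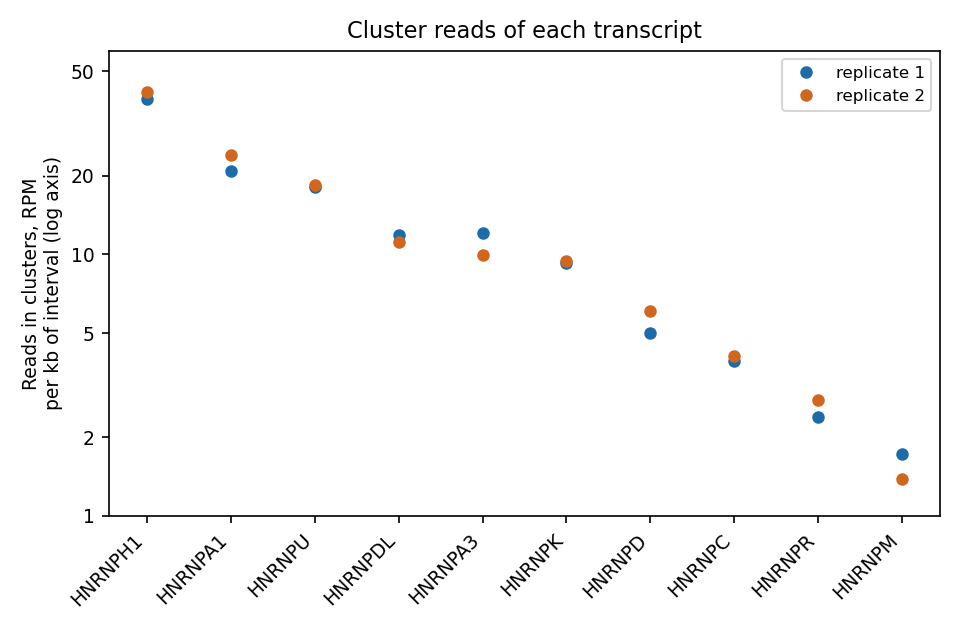
Recovered reads in clusters in RPM per kb of interval, on a log axis, for each transcript and replicate (blue, replicate 1; orange, replicate 2). The values run from 40.4 on HNRNPH1 to 1.55 on HNRNPM as means of both replicates, and the replicates lie close together on each transcript.

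HNRNPC, HNRNPD and HNRNPDL encode proteins that favour U-rich or AU-rich RNA. HNRNPC binds runs of U in introns and limits inclusion of unwanted exons, HNRNPD (also AUF1) binds AU-rich elements and speeds mRNA decay, and HNRNPDL is a close relative of HNRNPD. HNRNPDL carried the strongest peak by fold of all 10 transcripts, on the minus strand of chromosome 4, from 83345833 to 83345880. It held 56 reads in replicate 1, 33 in replicate 2 and 1 in the input. The log2 fold was 5.89 and 5.56 in the replicates, 5.73 ± 0.24 (SD, n = 2) in the joint list, or 52.9-fold, and it ranked 66 of 2253 peaks. Its exact 95% counting interval, from the reads of both replicates over the input, was wide at 3.25 to 11.08 on the log2 scale. The other peaks of HNRNPDL lay upstream, 76 nt from each other, from 83346514 to 83346551 and from 83346628 to 83346705. The first had 34 and 28 reads over an input number of 2 (log2 fold 4.25 ± 0.10, SD, n = 2), and the second 37 and 40 reads over 3 (3.98 ± 0.38). All peaks of HNRNPDL thus fell between 61.5% and 72.1% of the way from the 5′ end, the last centred 2139 nt before the 3′ end.

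HNRNPD, in the same region of chromosome 4 and also on the minus strand, had its highest peak toward the 5′ end, from 83292578 to 83292653, at 12.3% of the interval. It held 18 reads in replicate 1, 24 in replicate 2 and 1 in the input, with a log2 fold of 4.68 ± 0.59 (SD, n = 2) and a counting interval of 2.12 to 10.01. The next lay 16886 nt further downstream, from 83275641 to 83275691, with 17 and 17 reads over 1 and a log2 fold of 4.39 ± 0.30. The last, from 83275037 to 83275109, was centred 606 nt before the 3′ end of the interval and had 29 and 22 reads over 2, with a log2 fold of 3.95 in replicate 1 and 3.97 in replicate 2.

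HNRNPC had the most peaks, on chromosome 14 minus strand, over the longest interval. Its highest peak, from 21731396 to 21731436, held 50 reads in replicate 1, 51 in replicate 2 and 2 in the input, at a log2 fold of 4.96 ± 0.32 (SD, n = 2; counting interval 3.05 to 8.01). The second, from 21699009 to 21699092, held 56 and 24 reads over 2, at 4.50 ± 0.56. It was higher in replicate 1 (4.89) than in replicate 2 (4.10). The other 4 peaks had log2 folds from 3.04 to 4.43, and the lowest of them, from 21720241 to 21720283, ranked 2240 of 2253. The peak nearest the 3′ end was centred 2631 nt before it, and 3 of the 6 lay at 10.3%, 11.5% and 28.8% of the interval from the 5′ end.

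HNRNPA1 and HNRNPA3 encode members of the A/B group, which hold back splice sites and accompany mRNA out of the nucleus. HNRNPA1 had the most peaks per kb of interval, on chromosome 12 plus strand. The highest, from 54676465 to 54676514, held 40 reads in replicate 1, 31 in replicate 2 and 2 in the input. Its log2 fold was 4.44 ± 0.04 (SD, n = 2), with a counting interval of 2.53 to 7.51. The second by fold, from 54675332 to 54675368, held 13 and 13 reads over 1, at a log2 fold of 3.79 in replicate 1 and 4.21 in replicate 2 (SD 0.30, n = 2; counting interval 1.38 to 9.34). The peak with the most reads, 54 and 45 over 4, was centred 166 nt from the 5′ end of the interval, from 54674626 to 54674682, at 3.92 ± 0.11. The others were at 3.93 (from 54675760) and 3.76 (from 54678123, 878 nt before the 3′ end). The replicates differed by at most 0.43 on the log2 scale at each of the 5 peaks of HNRNPA1. When the interval was lengthened by 1000 nt past its 3′ end, the count on HNRNPA1 went from 5 to 6, and with 5000 nt at both ends it was 7. The other 9 transcripts gained no peak under either setting.

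HNRNPA3, on chromosome 2 plus strand, had 2 peaks. The first, from 178081486 to 178081556, held the most reads of replicate 1 at any hnRNP peak, 141, with 65 in replicate 2 and 12 in the input. The replicates' log2 folds were 3.64 and 2.95, 3.30 ± 0.49 (SD, n = 2) in the joint list. Replicate 2's own cluster there, from 178081476 to 178081546, had the same log2 fold of 2.95 and so was not enriched. The second peak, from 178086734 to 178086797, held 22 and 22 reads over 2, at 3.76 ± 0.30, and was centred 1921 nt before the 3′ end.

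HNRNPH1 and HNRNPK encode proteins with other base preferences, runs of G for HNRNPH1 and C-rich RNA for HNRNPK. HNRNPH1, a splicing regulator, had the most reads in clusters of the 10 transcripts, 1104 in replicate 1 and 873 in replicate 2. Its highest peak, on chromosome 5 minus strand from 179045466 to 179045493, held 40 reads in replicate 1, 29 in replicate 2 and 1 in the input. The log2 fold was 5.39 ± 0.03 (SD, n = 2), or 41.9-fold, rank 133 of 2253, with a counting interval of 2.87 to 10.72. The second by fold, from 179048158 to 179048194, held 68 and 63 reads over 3, at 4.75 ± 0.22. It touches a further peak, from 179048195 to 179048230, which had 60 reads in replicate 1, 123 in replicate 2 and 5 in the input. The peak with the highest −log10 p of all 37, 18.7, ran from 179048771 to 179048818, with 99 and 80 reads over 8 and a log2 fold of 3.78 ± 0.08. The fifth, from 179043785 to 179043843, was at 4.33 ± 0.16, 2635 nt before the 3′ end.

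HNRNPH1 also held the largest clusters that were not enriched. In replicate 1 a cluster from 179047781 to 179047859 had 191 reads over an input number of 33, a log2 fold of 2.62 and a −log10 p of 27.2. In replicate 2 the cluster from 179047821 to 179047874 had 113 reads over 27, at 2.58 and a −log10 p of 20.3. These clusters were left out by the fold limit alone. Of the unenriched clusters on the 10 transcripts with a −log10 p of at least 3, HNRNPH1 had 7 of 20 in replicate 1 and 5 of 18 in replicate 2. Of all clusters on the 10 transcripts it had 33 of 332 and 27 of 263. HNRNPH1 also had the most reads in clusters (1104 and 873), and these counts were not compared at matched reads.

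HNRNPK, an RNA-binding protein with KH domains that also acts in transcription and translation, had the lowest top peak of the 10. On chromosome 9 minus strand, the peak from 86592520 to 86592599 held 21 reads in replicate 1, 20 in replicate 2 and 2 in the input, at a log2 fold of 3.66 ± 0.25 (SD, n = 2; counting interval 1.70 to 6.74). Replicate 2's own cluster there ran from 86592525 to 86592611, with the same 20 reads over an input number of 9, and had a log2 fold of 1.67. The other peak, from 86584165 to 86584218, held 41 and 36 reads over 5, at 3.24 ± 0.17, 1193 nt before the 3′ end. Replicate 2 listed 3 further enriched clusters on HNRNPK outside the joint list, the highest from 86585565 to 86585637 at a log2 fold of 4.51 on 16 reads over 1.

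HNRNPU, HNRNPR and HNRNPM encode further nuclear RNA-binding proteins. HNRNPU, the scaffold attachment factor A, ties RNA to chromatin. On chromosome 1 minus strand its highest peak, from 245018216 to 245018235, was 20 nt wide and held 64 reads in replicate 1, 53 in replicate 2 and 3 in the input, at a log2 fold of 4.58 ± 0.11 (SD, n = 2; counting interval 2.99 to 6.87). The second, from 245025865 to 245025890, held 16 and 17 reads over 1, at 4.34 ± 0.36. A peak touching the highest one, from 245018175 to 245018215, held 63 and 76 reads over 7 at 3.61 ± 0.49, and the last 2 were at 3.30 and 3.31. The 5 peaks fell in 2 groups, 2 at 11.1% and 13.8% of the interval and 3 between 67.5% and 71.5%.

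HNRNPR, a relative of SYNCRIP that binds mRNA in nucleus and axons, had its highest peak on chromosome 1 minus strand from 23649991 to 23650032. It held 35 reads in replicate 1, 23 in replicate 2 and 1 in the input, at a log2 fold of 5.13 ± 0.13 (SD, n = 2), rank 215 of 2253, with a counting interval of 2.61 to 10.47. The second, from 23636696 to 23636757, held 16 and 13 reads over 1 at 4.15 ± 0.09 and was centred 450 nt before the 3′ end. The third, from 23659946 to 23660002, was at 3.82 ± 0.39 on 22 and 24 reads over 2.

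HNRNPM, a splicing regulator, had 2 of its 3 peaks touching each other at the 3′ end of its interval on chromosome 19 plus strand. The one from 8553930 to 8553976, centred 45 nt before the end, held 24 reads in replicate 1, 19 in replicate 2 and 1 in the input, at 4.72 ± 0.06 (SD, n = 2; counting interval 2.16 to 10.05). The one from 8553880 to 8553929 held 28 and 14 reads over 1, at 4.61 ± 0.41. The third lay 14699 nt upstream of this pair, from 8539146 to 8539180, at 4.07 ± 0.14 on 17 and 11 reads over 1.

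By the fold of their highest peak, the transcripts ran HNRNPDL, HNRNPH1, HNRNPR, HNRNPC, HNRNPM, HNRNPD, HNRNPU, HNRNPA1, HNRNPA3 and HNRNPK. The replicate values of 4 neighbouring pairs did not overlap (HNRNPDL and HNRNPH1, HNRNPH1 and HNRNPR, HNRNPU and HNRNPA1, HNRNPA1 and HNRNPA3), and those of the other 5 did. Both replicates are divided by the same input, so that spread leaves out the input's counting error. With it, the 95% counting intervals of all 9 neighbouring pairs overlapped, and the order cannot be settled at this depth. The intervals cover counting error only.

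**Figure D4:**
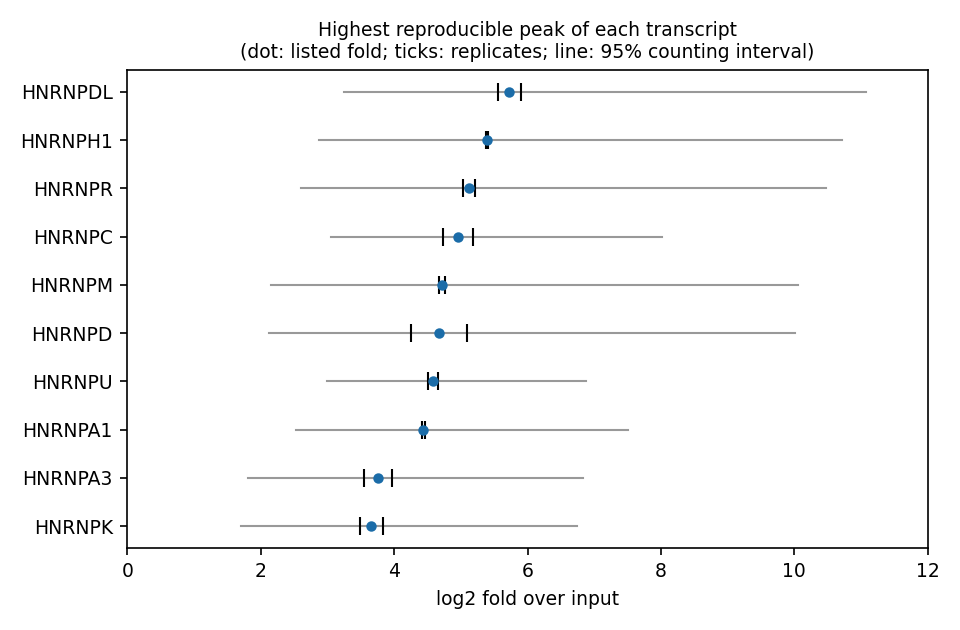
Log2 fold over input of the highest reproducible peak on each transcript. Dots are the listed fold, short ticks the 2 replicates, and lines the exact 95% counting interval from the reads of both replicates and the input. Dots run from 5.73 on HNRNPDL to 3.66 on HNRNPK, and the lines of neighbouring transcripts overlap.

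Along the intervals, 14 of 37 peaks were centred in the first 3rd, 9 in the middle and 14 in the last. Clusters of replicate 1 were spread likewise, with 125, 95 and 112 of 332, as were those of replicate 2, with 97, 86 and 80 of 263. Within 1000 nt of the 3′ end there were 5 peaks, on HNRNPM, HNRNPR, HNRNPD and HNRNPA1. Within a transcript, 13 peaks began at most 1000 nt after the previous one, and 3 pairs touched (HNRNPH1, HNRNPU and HNRNPM). Counted as 1 each, these pairs left 34 sites. Reads of touching peaks cannot be added up. On HNRNPU the touching peaks had 63 and 64 reads in replicate 1, while that replicate's own cluster from 245018175 to 245018232, which spans nearly both, had 74.

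Replicate values at the hnRNP peaks had medians of 3.99 and 4.21 on the log2 scale, in replicate order, against 4.09 and 4.18 over all peaks. The fold was higher in replicate 2 at 27 of 37 peaks (73.0%, exact 95% interval 55.9 to 86.2), against 57.5% of all peaks. The median SD between replicates was 0.24 on the log2 scale (n = 2), against 0.21 over all peaks. A log2 fold of 3 was reached in both replicates at 33 of 37 peaks (89.2%, exact 95% interval 74.6 to 97.0), against 95.2% of all peaks, and the exceptions lay on HNRNPC (2 peaks), HNRNPU and HNRNPA3. Replicate 1 held 53.4% of the reads of both replicates at the hnRNP peaks, against 56.3% at all peaks and 57.3% of the library totals.

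Read numbers were then tested peak by peak against the share of the library totals (two-sided exact binomial test, Benjamini-Hochberg adjusted over the 2247 peaks with whole reads). The test sets 1 library against 1 other and allows for counting error only. Replicates differed at 2 of 37 hnRNP peaks (5.41%, exact 95% interval 0.661 to 18.2), against 1.82% of all peaks. At an unadjusted p under 0.05 it was 6 of 37 (16.2%, 6.19 to 32.0), against 10.2%. Both intervals include the share over all peaks. The hnRNP peaks held more reads than peaks at large, and these shares were not compared at matched reads. Of the 2 peaks with an adjusted p under 0.05, 1 was the HNRNPH1 peak from 179048195. It had 22.4 RPM in replicate 1 and 61.6 RPM in replicate 2 and log2 folds of 3.67 and 5.13 (exact binomial test, adjusted p = 3.61e-08). The other was the HNRNPU peak from 245017630 to 245017694, with 37 and 63 reads, 13.8 and 31.5 RPM, and log2 folds of 2.71 and 3.91 (exact binomial test, adjusted p = 0.00822). Replicate 2 was the higher one at each. Both peaks have the bounds of replicate 2's own clusters, which can favour that replicate, and the test does not allow for this. Over the 37 peaks, 19 have the bounds of replicate 1 and 18 those of replicate 2. At the first HNRNPA3 peak, which has the bounds of replicate 1, replicate 1 was higher, and the exact binomial test gave an adjusted p of 0.0594. Against the share of the pooled reads of all peaks 3 of 37 passed, instead of 2.

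**Figure D5:**
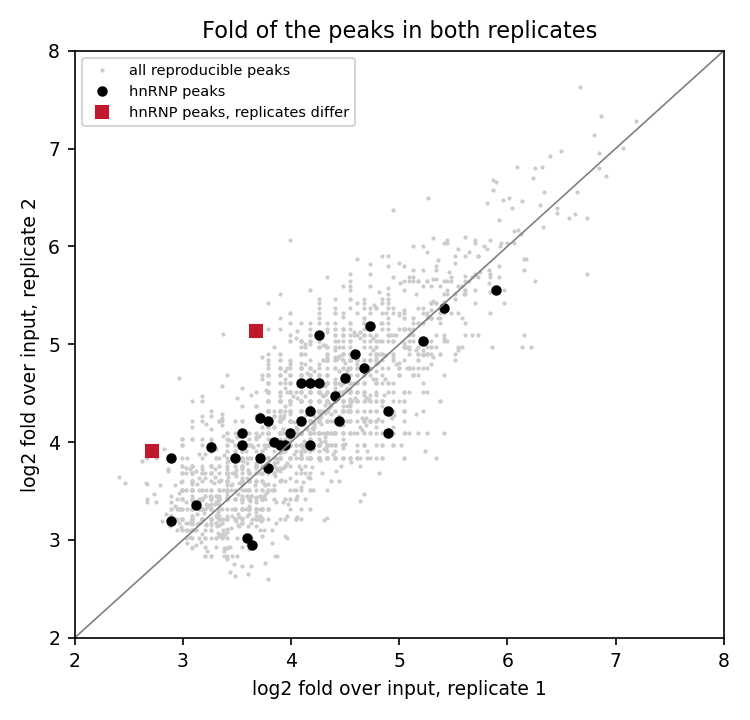
Log2 fold over input in replicate 1 and replicate 2 at all 2253 reproducible peaks (grey) and the 37 hnRNP peaks (black). Red squares are the 2 hnRNP peaks, on HNRNPH1 and HNRNPU, whose reads differ between replicates by the exact binomial test, and the line marks equal values. Of the 37 peaks, 27 lie above the line.

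Agreement of the separately called clusters was also described. Of the 39 enriched clusters of replicate 1, 31 (79.5%, exact 95% interval 63.5 to 90.7) overlapped an enriched cluster of replicate 2, against 63.4% of all enriched clusters. In the other direction it was 31 of 46 (67.4%, 52.0 to 80.5), against 57.1%. The hnRNP clusters held more reads than clusters at large, and the shares were not compared at matched reads. The transcripts were chosen with earlier results of these data known, so the shares in this paragraph may follow from the choice. Enriched clusters of both replicates overlapped 31 of the 37 peaks (83.8%, 68.0 to 93.8), against 88.7% of all peaks. At the other 6, on HNRNPC and HNRNPU (2 each), HNRNPK and HNRNPA3, 3 lacked one in replicate 1 and 3 in replicate 2. Outside the joint list there were 17 enriched clusters. In replicate 1 it was 5 of 39 (12.8%, 4.30 to 27.4), against 33% of all enriched clusters. In replicate 2 it was 12 of 46 (26.1%, 14.3 to 41.1), against 39.2%. The 17 clusters had 12 to 33 reads and log2 folds from 3.09 to 4.51. Of these, 9 overlapped a cluster of the other replicate and 8 overlapped none.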

How the data were processed

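The authors deposited clusters for each of 2 TIA1 immunoprecipitated replicates and 1 joint list of reproducible peaks. The submitters' processing notes name STAR 2.4.0i, SAMtools 1.4.1, cutadapt (1.14 and 1.9.1) and build hg19. What each did, and which program called clusters, was not given in the sources used here. No list has a header. From the values, the deposited log2 column is the authors' library-scaled fold over input and the deposited −log10 column its p-value, with a ceiling of 400. The input entered only through these values.

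Read numbers were recovered from the steps of the log2 fold and the −log10 p-value (relative tolerance 2e-05), uniquely for 93.4% of clusters in replicate 1 and 94.9% in replicate 2. At a joint peak the replicate whose bounds it has gave 1 log2 fold and the joint mean the other, with reads whole within 1e-04. Recovery and the binomial test were tested on simulated data. Adjustment ran over all peaks. Python 3.11.15 and scipy 1.17.1 were used. The transcripts and lists were chosen with earlier results of these data known. All 10 transcripts are named, with replicate values for the 2 peaks of highest fold on each and for further peaks chosen after their values were seen. The wider hnRNP family and site sequences were not analysed here, for want of an hg19 annotation or genome.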

Additional observations from a re-analysis of the deposited data

How the results depend on the processing

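Of 38 alternative settings of the main results, 28 gave a count within 1.5 times or a value within its spread, and 10 did not. On the opposite strand there were 0 enriched clusters in each replicate, 0 reproducible peaks and 0 transcripts with one. These values may follow from how clusters were called, which is not known here. With the stricter limits (log2 fold 4, −log10 p 5), replicate 1 had 11 enriched clusters and replicate 2 had 19, and peaks went to 12 with a median log2 fold of 4.65, and the overlap of replicate 1 with replicate 2 was 90.9%. Those 12 peaks lay on 7 of the 10 transcripts. At a log2 fold of 1 replicate 1 had 59 enriched clusters. With 1 replicate alone, enriched clusters in place of joint peaks numbered from 39 to 46, with medians from 3.89 to 4.10. Of 70 settings of the counts per transcript, 22 moved by over 1.5 times. Lengthening by 5000 nt and joining touching peaks were chosen after seeing the data. No paired analysis was possible because only 1 group has replicates. Small input numbers limit every fold.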
